A study of Mus musculus with 4 samples.

Results

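The contractile genes of mural cells were followed across 4 single-cell libraries of mouse pancreatic islets. They are 8 genes chosen by name, Acta2, Tagln, Myh11, Cnn1, Des, Myl9, Tpm2 and Pdlim3, out of 38457 mouse features, and each of the 8 names had a row in every library. The libraries were made from primary islet cells with inDrop, in which each cell is caught in a droplet and its transcripts are read near their 3′ ends. A pair of libraries is labelled Sin3A mutant, here mutant A and mutant B, and a pair is labelled WT, here WT A and WT B. The letters stand for a number that ends each title and that a mutant and a WT library share, and the labels leave its meaning unsaid. The labels give no age, sex, strain, allele or Cre driver, and the series describes 2 biological replicates per genotype.

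Mural cells are the pericytes and smooth muscle cells that wrap blood vessels. They contract by sliding myosin along actin filaments, and the genes of this machinery are known targets of serum response factor, a transcription factor that binds a short DNA element called the CArG box. In islets, pericytes line the dense capillary bed, and fibroblasts of the same stroma can also take up some of these genes when they become contractile. Acta2 encodes smooth muscle actin, Myh11 the smooth muscle myosin heavy chain, and Myl9 a regulatory light chain of myosin. Tagln (transgelin), Cnn1 (calponin 1) and Tpm2 (beta-tropomyosin) encode proteins that bind actin filaments. Des encodes desmin, an intermediate filament protein of muscle, and Pdlim3 a protein of the sarcomeric Z-line known from skeletal and heart muscle.

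RefSeq promoter windows of GRCm38.p6 were at hand for 6 of the 8 genes, each running from 250 bases before the annotated start to 50 bases after it. The promoters of 3 genes are shown because they span what the search found, from an exact CArG box (Myl9) through near matches only (Acta2) to none (Cnn1). The capitals mark CArG boxes, exact or with 1 G or C among the 6 inner bases that are otherwise A or T. Each is written 5′ to 3′ on the gene's own strand, Acta2 from chr19:34255324-34255623 (minus strand), Myl9 from chr2:156775214-156775513 (plus strand) and Cnn1 from chr9:22099003-22099302 (plus strand).
Acta2: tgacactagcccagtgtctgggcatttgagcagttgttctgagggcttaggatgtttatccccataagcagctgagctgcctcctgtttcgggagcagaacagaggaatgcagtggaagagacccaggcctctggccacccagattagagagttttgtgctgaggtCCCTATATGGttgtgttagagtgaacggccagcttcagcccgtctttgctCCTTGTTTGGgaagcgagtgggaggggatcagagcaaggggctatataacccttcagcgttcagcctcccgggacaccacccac
Myl9: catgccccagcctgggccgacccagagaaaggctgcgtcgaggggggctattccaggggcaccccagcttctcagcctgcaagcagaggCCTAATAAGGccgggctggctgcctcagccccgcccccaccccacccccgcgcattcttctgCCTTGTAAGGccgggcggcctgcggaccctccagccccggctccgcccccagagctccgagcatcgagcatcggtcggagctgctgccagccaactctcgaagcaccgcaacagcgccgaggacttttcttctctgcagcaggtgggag
Cnn1: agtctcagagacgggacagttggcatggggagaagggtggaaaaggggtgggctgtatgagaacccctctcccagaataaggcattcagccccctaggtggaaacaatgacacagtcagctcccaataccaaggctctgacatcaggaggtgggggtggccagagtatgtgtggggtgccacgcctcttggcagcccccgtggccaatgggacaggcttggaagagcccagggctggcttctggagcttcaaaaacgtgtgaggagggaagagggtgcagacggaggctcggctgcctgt

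An exact CArG box stood in 535 of 32851 promoter windows (1.63%), and among the 6 contractile windows it stood in that of Myl9, as CCTAATAAGG beginning at -161 from the start. A box with 1 G or C among its inner bases stood in 2792 windows (8.50%), and in those of Acta2, Myl9 and Pdlim3. The Acta2 window held CCCTATATGG at -84 and CCTTGTTTGG at -34, the Myl9 window held CCTTGTAAGG at -99, and the Pdlim3 window held CCAAAGTTGG at -100. The element reads as a CArG box on both strands, so each match counts once. No match was found in the windows of Des, Tpm2 and Cnn1, which says only that these letters are not in these 300 bases. Tagln and Myh11 were not among the promoter windows.

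The 4 libraries held 1323, 2445, 1302 and 1878 barcodes in the order mutant A, mutant B, WT A, WT B, which is used for every run of 4 values below. Cell filters kept 6526 cells, with a median of 4448.5 to 9997 counts per cell in a library and with 9282500 to 12835200 counts in a library over all its barcodes. Library pairs shared 12 to 42 barcodes. Beta-like cells, recognised by their insulin markers, were the most numerous class with 2924 cells. Sin3a, the targeted gene, stood at 54.1 and 21.3 CPM (counts of the gene in the cells summed, scaled to a total of 1000000) in the libraries labelled mutant A and mutant B, against 27.5 and 43.5 CPM in those labelled WT A and WT B. Within A the library labelled mutant had more Sin3a than that labelled WT, and within B it had less, so the genotypes below are those of the labels. A 3′ tag outside the changed part of the gene would not check the labels.

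Cells were grouped without the contractile genes, which were kept out of the clustering and out of the gates. In all, 3 clusters with 797 cells carried stromal markers and are called mesenchymal-like. They held 63, 454, 118 and 162 cells. Within them a cell was put in the pericyte gate if its Rgs5 and Notch3 counts together came to at least 2 and to at least 2 times those of Itm2a and Ptn, and in the fibroblast gate in the reverse case. Rgs5 encodes a regulator of G-protein signalling and Notch3 a receptor, both typical of pericytes. Itm2a encodes a membrane protein and Ptn a secreted growth factor of stromal cells. The pericyte gate took 348 cells (53, 168, 49 and 78), the fibroblast gate 365 (8, 227, 56 and 74), and 84 stayed ungated. Pericyte markers that the gate did not use ran with it. Cspg4, a proteoglycan of pericytes, stood at 296 to 489 CPM in the pericyte gate of the 4 libraries and at 29.9 to 85.3 CPM in the fibroblast gate. Dcn, a collagen-binding proteoglycan of fibroblasts, stood at 0 to 553 CPM in the pericyte gate and at 1177 to 2375 CPM in the fibroblast gate.

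The contractile genes were genes of the mesenchymal-like cells. In 28 of 32 pairs of a gene and a library the mesenchymal-like sum was the highest of the 9 to 11 classes with at least 10 cells, and in 23 of these its 95% Poisson interval lay apart from that of the next class. The same was not counted over all genes, so these numbers have no background beside them. The next class sometimes rested on 1 count, as for Acta2 in WT A. Over the 4 libraries the mesenchymal-like cells held 93.9% of the Acta2 counts, 91.1% of those of Myh11, 90.1% of those of Myl9, 89.8% of those of Des and 86.7% of those of Tagln. Acta2 stood at 684, 1653, 2907 and 1103 CPM in mesenchymal-like cells, against 38.4, 81.0, 13.3 and 21.1 CPM in endothelial-like cells. In beta-like cells Acta2 stood at 2.47, 13.8, 3.61 and 3.14 CPM, a class in which smooth muscle actin is not expected.

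The remaining genes were less sharply placed. Pdlim3 had 35.9% of its 612 counts in mesenchymal-like cells and 32.7% in beta-like cells, where it stood at 8.11 CPM over all libraries. Tpm2 had 62.4% of its 173 counts in mesenchymal-like cells, and Cnn1 52.8% of its 180 counts, with 33.3% of the Cnn1 counts in beta-like cells at 2.43 CPM. In the library labelled WT B no Cnn1 count fell in the 162 mesenchymal-like cells, which allows up to 4.94 CPM there. Tagln also had counts outside the stroma, with its highest values there in B. In Schwann-like cells, the glia of peripheral nerves, it stood at 491 CPM in mutant B (32 counts, in 5 of 28 cells) and at 225 CPM in WT B (15 counts, in 5 of 25 cells). In ductal-like cells it stood at 191 CPM in mutant B and 97.0 CPM in WT B. In endothelial-like cells it stood at 187 CPM in mutant B (27 of 145 cells) and 31.6 CPM in WT B. The endothelial-like cells of WT A had 39.9 CPM (12 counts), and those of mutant A 3.20 CPM (1 count). Tagln stood at 8.55 CPM in mutant B beta-like cells. Acta2 had 0 counts in the Schwann-like cells over all libraries. In mutant B and WT B it stood at 5.39 and 4.13 CPM in ductal-like cells and at 81.0 and 21.1 CPM in endothelial-like cells. Rgs5 had 42 counts in 1 of the mutant B Schwann-like cells. The part of mural RNA or mixed droplets in the Tagln values was not tested.

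**Figure D1:**
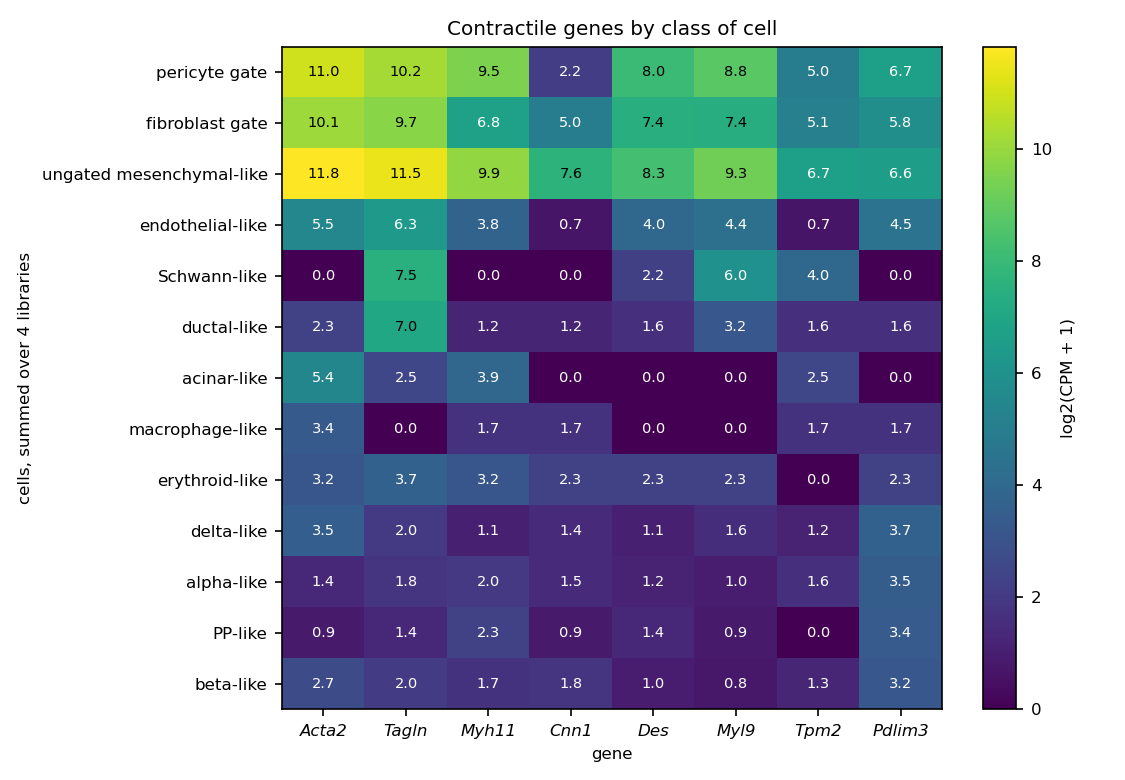
Level of each contractile gene as log2(CPM + 1) in each class of cell (rows), with counts summed over the 4 libraries, from 0 (dark) upward. The 3 mesenchymal rows at the top hold the highest values for 7 of the genes, and for Cnn1 the pericyte gate, at 3.45 CPM, lies below the erythroid-like row, at 3.95 CPM.

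**Figure D2:**
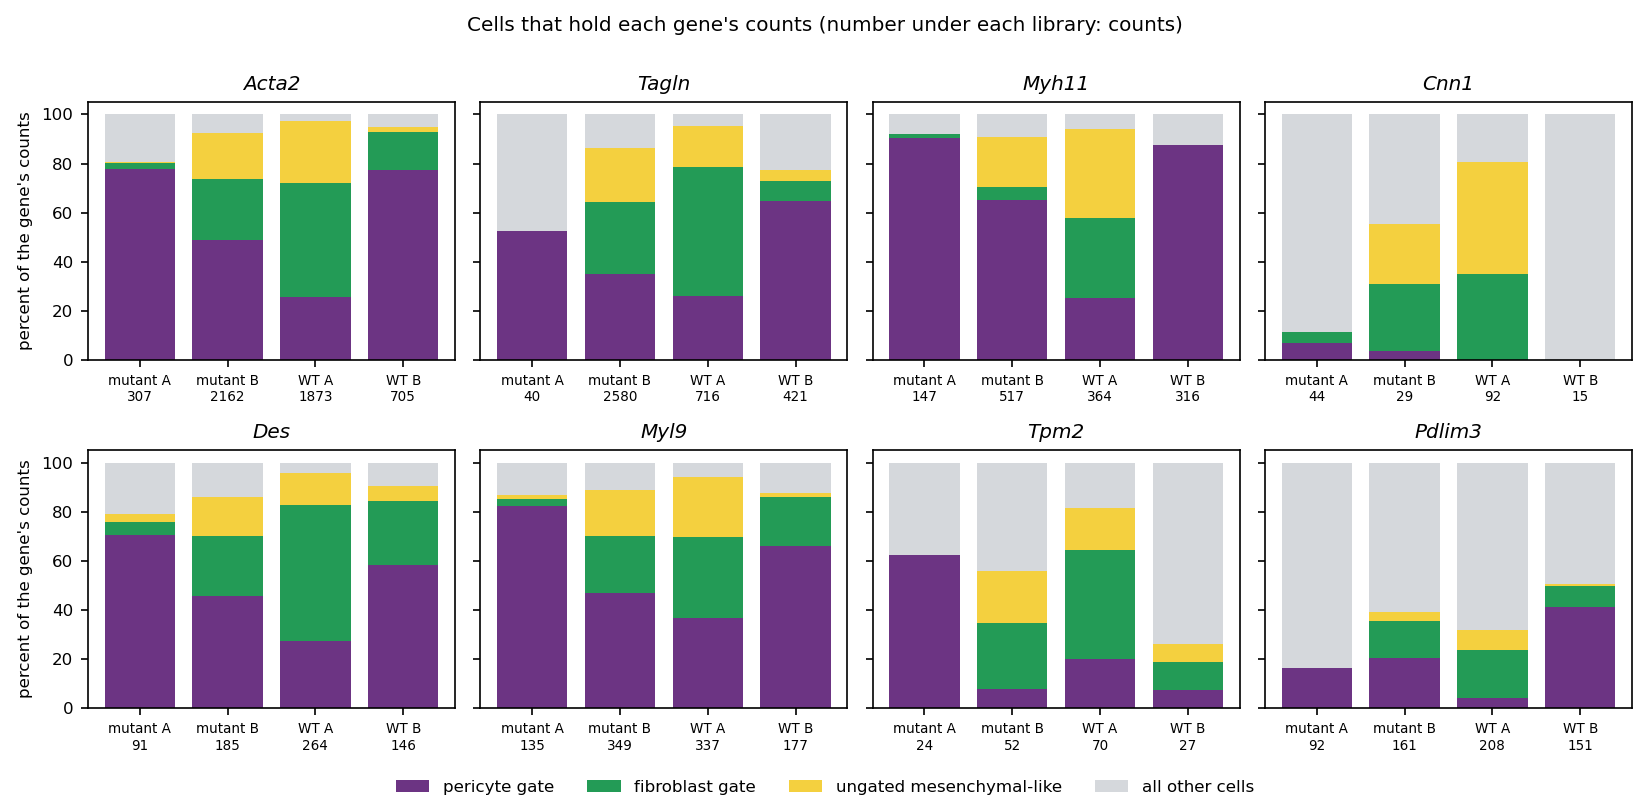
Percent of each gene's counts (vertical axis) that lay in the pericyte gate, the fibroblast gate, ungated mesenchymal-like cells and all other cells, for each library (horizontal axis, with the gene's counts below the name). The pericyte gate holds 77.8% of the Acta2 counts in mutant A and 77.3% in WT B, against 48.6% in mutant B and 25.5% in WT A.

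Pericyte-gated cells were compared with fibroblast-gated cells to see which contractile genes differ between these gates within the islet stroma. Smooth muscle cells had no gate of their own, so the comparison does not cover all mural cells. Myh11, Acta2 and Myl9, the myosin heavy chain, the actin and the light chain, were higher in the pericyte gate. Acta2 stood at 804, 2755, 1986 and 2279 CPM in the pericyte gate of the 4 libraries. In the fibroblast gate it stood at 119, 802, 2634 and 332 CPM. It was thus 6.74, 3.44 and 6.86 times as high in the pericyte gate of mutant A, mutant B and WT B, and 0.754 times as high in WT A. The difference was 1.504 ± 0.415 on the log2 scale (SE, 4 libraries as blocks; quasi-likelihood F test of edgeR, adjusted p = 0.0243 after Benjamini-Hochberg).

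Myh11 stood at 448, 881, 379 and 1154 CPM in the pericyte gate and at 34.1, 41.4, 363 and 0 CPM in the fibroblast gate. The fibroblast values come from 2, 28, 120 and 0 counts. In mutant B the pericyte gate was 21.3 times as high, in WT B at least 128 times (against 3 counts in that library), and in WT A 1.04 times. Its log2 difference was 3.25 ± 0.80 (adjusted p = 0.0126, edgeR). Myl9 was the steadiest of the contractile genes, at 374, 427, 512 and 489 CPM in the pericyte gate and 68.2, 119.8, 339 and 105 CPM in the fibroblast gate. Its pericyte gate was higher in 4 of 4 libraries, by 5.48, 3.57, 1.51 and 4.67 times, a log2 difference of 1.51 ± 0.27 (adjusted p = 0.00138, edgeR).

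Tagln, Des and Pdlim3 did not pass the test. Tagln stood at 70.7, 2352, 770.2 and 1137 CPM in the pericyte gate and at 0, 1120.0, 1146 and 105 CPM in the fibroblast gate, with a log2 difference of 1.14 ± 0.50 (adjusted p = 0.16, edgeR). Des stood at 215, 220.2, 299.8 and 355 CPM in the pericyte gate and at 85.3, 68.1, 442 and 114 CPM in the fibroblast gate, with a log2 difference of 0.82 ± 0.34 (adjusted p = 0.144, edgeR). Both were higher in the fibroblast gate of WT A and in the pericyte gate of the other 3 libraries. Pdlim3 showed the same division, with 50.5, 86.5, 33.3 and 259 CPM in the pericyte gate and 0, 35.5, 124 and 38.9 CPM in the fibroblast gate (log2 difference 0.86 ± 0.57, adjusted p = 0.391, edgeR). In mutant A the fibroblast gate held 8 cells and 58628 counts, so 0 counts allow up to 51.2 CPM of Tagln or Pdlim3 there.

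Cnn1 and Tpm2 fell below the filter on low counts. Cnn1, with 3, 1, 0 and 0 counts in the pericyte gate against 2, 8, 32 and 0 in the fibroblast gate, was nearly absent from pericyte-gated cells. Tpm2 had 15, 4, 14 and 2 counts in the pericyte gate against 0, 14, 31 and 3 in the fibroblast gate, and its levels of 50.5, 10.5, 58.3 and 8.36 CPM in the pericyte gate overlapped those of 0, 20.7, 93.7 and 8.98 CPM in the fibroblast gate. Of the 6 contractile genes tested, 3 were thus called higher and 0 lower, where 7.16% of the 5351 genes tested were called higher and 7.34% lower. With DESeq2 only Myl9 was called, and without WT B or without mutant B likewise only Myl9 (edgeR), so the calls of Acta2 and Myh11 rest on both B libraries, and that of Acta2 was lost without mutant A too. Without the library as a block none was called, and with a gate of at least 1 count Acta2 was not. Leaving out each library moved the log2 difference of Myh11 between 2.23 and 5.15, that of Acta2 between 1.04 and 2.28, that of Tagln between 0.33 and 2.07, that of Des between 0.56 and 1.56 and that of Pdlim3 between 0.068 and 1.97, each highest without WT A and lowest without WT B.

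**Figure D3:**
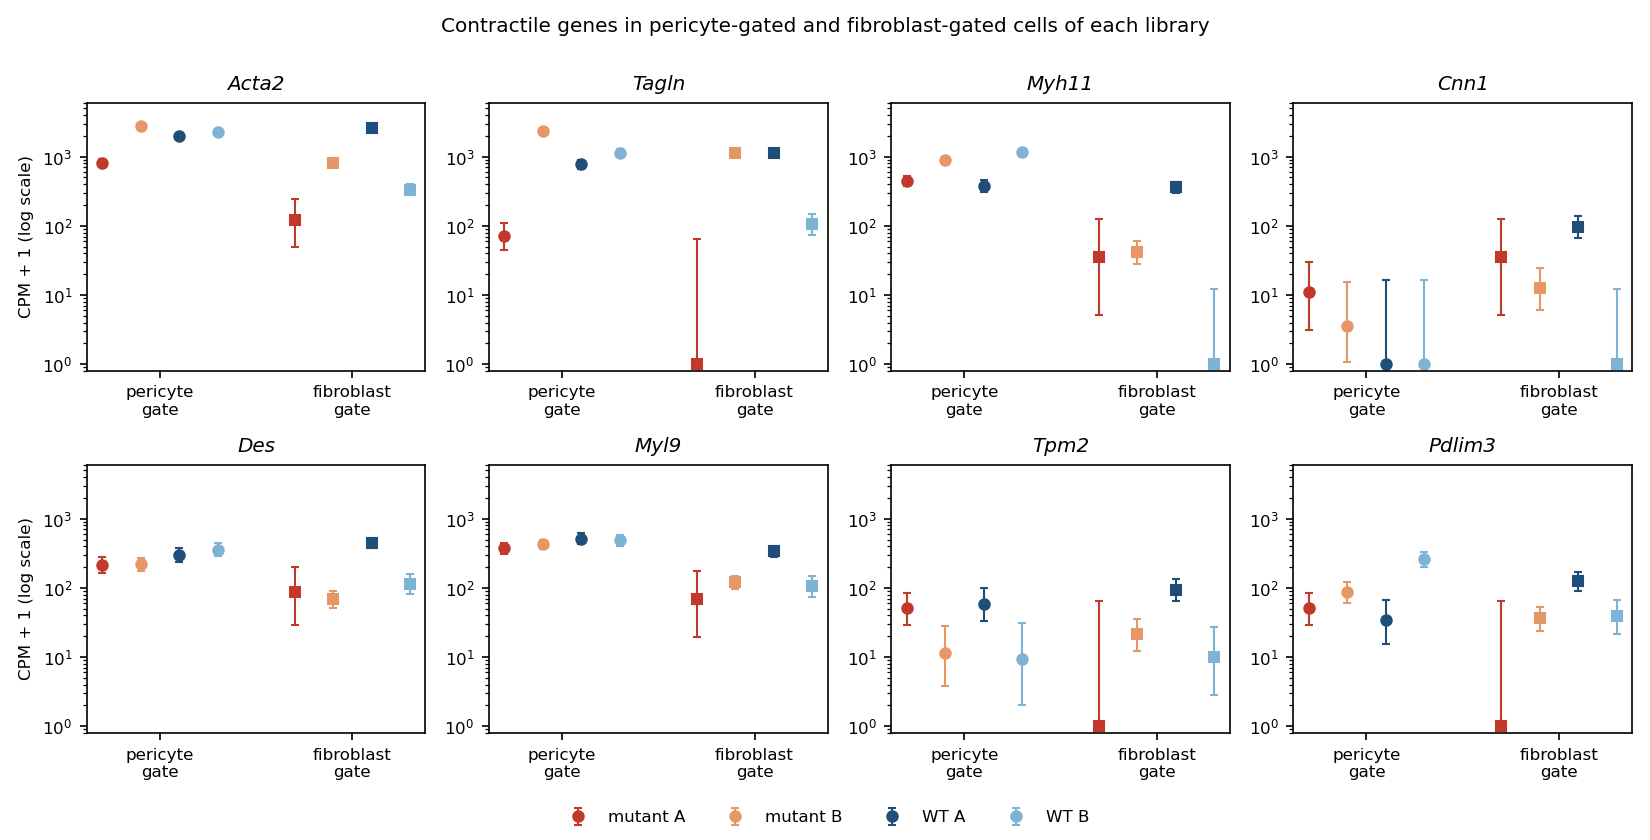
Level of each contractile gene (vertical axis, CPM + 1, log scale) in pericyte-gated cells (circles, left) and fibroblast-gated cells (squares, right) of each library, with 95% Poisson intervals that cover counting error only. Myl9 is tight among the 4 pericyte-gated sums, at 374 to 512 CPM, and WT A stands highest in the fibroblast gate for each of the 8 genes, for Tagln by 1146 against 1120.0 CPM in mutant B.

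The mesenchymal-like cells formed a cluster led by Rgs5 (346 cells), one with H19 and Itm2a at its head (304 cells) and one of 147 cells led by Col1a1, which encodes a collagen. The last is called Acta2/Tagln-led here for those of its 10 leading genes that are contractile. Its others include Dcn, Eln and Postn, which encode matrix proteins. It held 0, 116, 30 and 1 cells. They fell mostly into the fibroblast gate (88 cells), where they were 68 of 227 cells in mutant B and 20 of 56 in WT A, with 26 in the pericyte gate and 33 ungated. Those 33 make up part of the 84 ungated cells, in which Acta2 stood at 3616 CPM and Cnn1 at 198 CPM over all libraries. Acta2 stood at 2300.2 CPM in the mutant B cells of this cluster and at 7808 CPM in those of WT A. The 30 cells of WT A held 71.4% of all Acta2 counts of that library, 76.7% of its Tagln counts and 80.4% of its Cnn1 counts.

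All 8 genes had counts in the cluster's cells of both mutant B and WT A, at different levels. Tagln stood at 3891 CPM in the mutant B cells of the cluster and at 3204 CPM in those of WT A. Des stood at 71.5 CPM in mutant B and 776 CPM in WT A, Cnn1 at 45.8 and 432 CPM in the same order, Myh11 at 406 and 1605 CPM, and Tpm2 at 34.3 and 251 CPM. A few cells held much of the WT A counts. Its 3 cells with the most Cnn1 held 53 of 74 Cnn1 counts, those with the most Myh11 held 172 of 275, and those with the most Des held 79 of 133, and 14 of its 30 cells had any Myh11. Of pericyte markers the cluster held little, with Cspg4 at 22.9 CPM in mutant B and 75.9 CPM in WT A. With 1 library per label these are values of 2 libraries, with no test.

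The comparison of the gates was repeated without that cluster, an alternative chosen after the data were seen. The cluster was singled out by its Acta2 and Tagln, and most of its cells were fibroblast-gated, so leaving it out favours larger differences and the calls that follow are a description. All 6 contractile genes tested were then called higher in the pericyte gate, where 9.69% of the 4684 genes tested were. The log2 differences were 1.81 for Acta2, 2.24 for Tagln, 6.41 for Myh11, 1.16 for Des, 1.88 for Myl9 and 2.50 for Pdlim3 (edgeR, adjusted p of at most 0.00244). In WT A the pericyte gate now stood above the fibroblast gate for Acta2 (1399 against 751 CPM), Tagln (466 against 138 CPM) and Des (305 against 219 CPM). Myh11 was left with 2, 7, 0 and 0 counts in fibroblast-gated cells, and Cnn1 with 3, 0, 0 and 0 counts in pericyte-gated and 2, 0, 0 and 0 in fibroblast-gated cells. Leaving out WT A as a whole likewise gave 6 calls of 6.

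**Figure D4:**
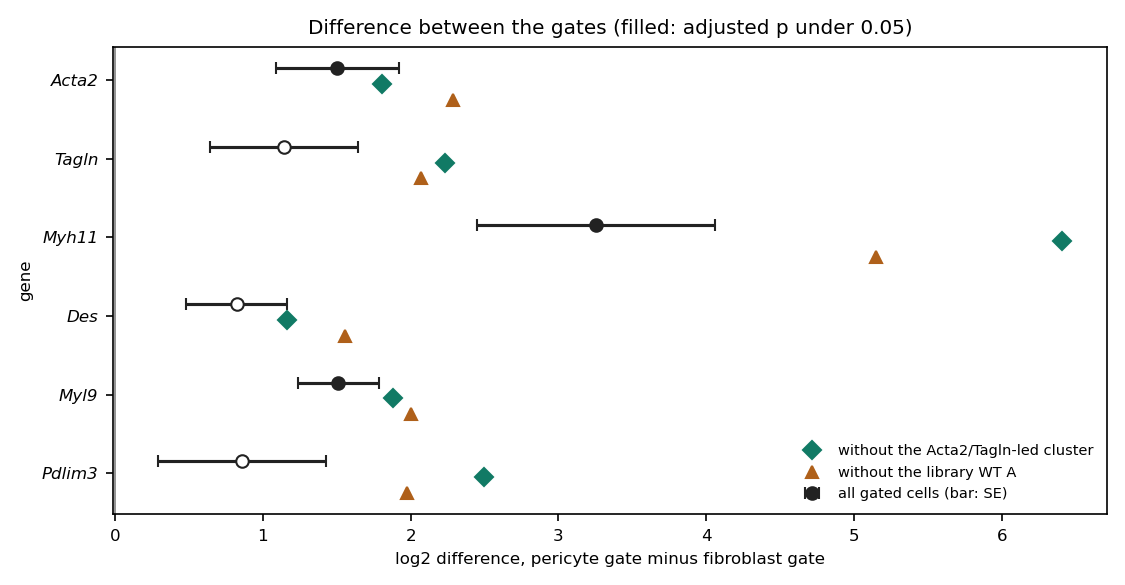
Log2 difference between the pericyte gate and the fibroblast gate (horizontal axis) for the 6 contractile genes tested, in all gated cells (circles, bars are SE), without the Acta2/Tagln-led cluster (diamonds) and without the library WT A (triangles), filled where the adjusted p is under 0.05. Open circles mark Tagln, Des and Pdlim3, and every diamond and triangle is filled.

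Pericyte-gated cells held more of the 8 genes per cell than fibroblast-gated cells did. Such averages follow from how often each gene is detected, and whether the genes share cells was not tested. Thinned to 2000 counts each, pericyte-gated cells had on average 2.23, 2.74, 2.87 and 3.38 of the 8 genes with at least 1 count, and fibroblast-gated cells had 0.857, 1.51, 2.0 and 0.957. At full depth the averages were 3.09, 2.95, 3.65 and 3.73 in the pericyte gate against 1.5, 1.73, 3.32 and 1.54 in the fibroblast gate. Thinned beta-like cells had 0.0392 and endothelial-like cells 0.239. Thinning left out 106 shallower cells of the pericyte gate and 57 of the fibroblast gate. The counts were uneven among pericyte-gated cells: the 10% of cells with the most Acta2 held 45.2 to 53.0% of its counts per library, and 24.5 to 34.0% of the cells had none. The same share was 32.5 to 40.5% for Myl9 and 50.1 to 85.7% for Tagln. For the gate genes it was 23.3 to 29.7% (Rgs5) and 22.9 to 27.7% (Notch3). Cell depth was not evened out in these shares.

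Other genes of the contractile machinery and its regulators were read from a list of 73 genes that leaves out the 8. Of its 54 genes tested between the gates, 23 were higher in the pericyte gate, 2 were lower and 29 did not pass, where 7.16% and 7.34% of all genes tested were higher and lower, with a median log2 difference of 0.79 against -0.02 over all genes tested. The list was drawn up with earlier results of these data known, and it also holds genes outside that machinery, such as Olfr558 and Aoc3. The share and the median thus describe this list and do not test contractile genes as a set. Receptors for angiotensin II and endothelin, hormones that constrict vessels, were among those that rose. Agtr1a, an angiotensin II receptor, stood at 148, 249, 296 and 255 CPM in the pericyte gate and 17.1, 50.3, 33.3 and 86.8 CPM in the fibroblast gate (log2 difference 2.19 ± 0.29, adjusted p = 0.000113, edgeR). Ednra, an endothelin receptor, rose by 1.72 ± 0.25 on the log2 scale, Itga1, a collagen-binding integrin, by 2.77 ± 0.37, and Mef2c, a transcription factor of muscle lineages, by 2.47 ± 0.26. Olfr558, an olfactory receptor, had 275 counts in the pericyte gate and 0 in the fibroblast gate of every library, and was at least 111-fold higher there (against 3 counts over the group).

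Mustn1, a small nuclear protein of muscle and bone, rose by 3.84 ± 0.45 on the log2 scale, Pdlim1, a relative of Pdlim3, by 2.31 ± 0.29, and Aoc3, an amine oxidase of vessel walls, by 2.26 ± 0.32. Each of the 8 was higher in 4 of 4 libraries. The 2 that fell were Myh10, a non-muscle myosin heavy chain, by 1.36 ± 0.22, and Smtn (smoothelin), an actin-binding protein best known from contractile smooth muscle, by 1.34 ± 0.35 (adjusted p = 0.019, edgeR). Without the Acta2/Tagln-led cluster 28 genes of the list rose and 4 fell of 52 tested, where 454 rose and 417 fell of all 4684, and 22 of the 23 and both of those that fell kept their call. Smtn lost its call with DESeq2 and without WT A.

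The genes whose levels ran most like the contractile genes were ranked by Pearson's r with the mean log2(CPM + 1) of the 8 genes, over 38 sums of 13 classes and 4 libraries and 15364 genes with at least 100 counts. Leaving out the 8 genes and the 4 of the gates, the closest were Galnt16 (r = 0.91), Ccdc80 (0.90), Mylk (0.89), Naalad2 (0.89), Ppp1r14a (0.88), Osr1 (0.87), Kcne4 (0.87) and Kcnj8 (0.87). The 38 sums share libraries and depth, and the values describe them without a test. Galnt16 stood at 138, 144, 271 and 167 CPM in the pericyte gate and 34.1, 84.3, 78.6 and 89.8 CPM in the fibroblast gate. Over all libraries Mylk, Naalad2, Ppp1r14a and Kcnj8 were higher in the pericyte gate too. Osr1 was lower there, at 57.9 against 129 CPM, as were Kcne4 (57.9 against 72.2 CPM) and Ccdc80 (295 against 323 CPM). The ranking thus does not single out genes of the pericyte gate. Of the 8 contractile genes themselves, Pdlim3 had r = 0.71 and Cnn1 r = 0.50.

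Libraries labelled mutant were then compared with those labelled WT within each class of cell, the comparison for which the series was made. In pericyte-gated cells no contractile gene passed in either direction, nor did any of the 5206 genes tested (0% called; with no adjustment 11 genes higher and 3 lower had p under 0.05 in edgeR, and DESeq2 called 0). Des, at 215 and 220.2 CPM in the libraries labelled mutant against 299.8 and 355 CPM in those labelled WT, did not overlap between the labels. Myl9 did not overlap either, at 374 and 427 CPM in mutant against 512 and 489 CPM in WT libraries. These 2 of the 7 contractile genes tested were lower without overlap, as were 13.8% of all genes tested, and 0 were higher without overlap, as were 7.05%. Their log2 differences were -0.47 ± 0.41 for Des and -0.21 ± 0.40 for Myl9 (adjusted p = 1, edgeR).

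By the labels, Acta2 and Tagln went opposite ways in A and B. Pericyte-gated Tagln stood at 70.7 CPM in mutant A against 770.2 CPM in WT A, and at 2352 CPM in mutant B against 1137 CPM in WT B, ratios of 0.0918 and 2.07. In mutant A 45 of 53 pericyte-gated cells had no Tagln count, and the other cells held 21 counts. Acta2 stood at 804 CPM in mutant A against 1986 CPM in WT A and at 2755 CPM in mutant B against 2279 CPM in WT B, ratios of 0.405 and 1.21. Directions within A follow labels that Sin3a goes against, at 54.1 CPM in mutant A against 27.5 CPM in WT A. Taken the other way, WT A over mutant A was 10.9 for Tagln and 2.47 for Acta2, above 1 like the ratios within B. Opposite ratios agree whenever 1 of them is turned, so this does not check the labels. Des and Myl9, below 1 in both pairs by the labels, turned to 1.39 and 1.37 in A. Within B they stood at 0.620 and 0.873. Myh11 and Pdlim3 turned to 0.846 and 0.660 in A, below 1 as within B. Over both pairs the log2 differences were 0.39 ± 1.15 for Tagln and -0.19 ± 0.58 for Acta2 (adjusted p = 1, edgeR). With a replicate block for the shared title number Tagln turned to -0.86 and Myh11 to 0.027, and 7 genes were called, none of them contractile. Without the block Myh11 differed by -0.12 ± 0.61, with ratios of 1.18 in A and 0.763 in B, and Pdlim3 by -0.99 ± 0.85, with ratios of 1.52 and 0.334. For Tpm2 the value was -0.0034 ± 0.997, and Cnn1 was not tested.

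RNA of beta cells was most abundant in the gated cells of mutant A. Genes of a beta-cell list of 9 took 9.73, 0.155, 2.96 and 0.228% of the counts of the pericyte gate, and 11.2, 0.0977, 0.317 and 0.174% of those of the fibroblast gate. Of the 9 genes 8 were detected in the pericyte gate, and Mafa was at 0 in all libraries. The part of this RNA in the differences between labels was not tested. An endothelial list of 8 genes took 0.0349 to 0.0461% of the pericyte gate's counts, with every gene detected in some library.

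**Figure D5:**
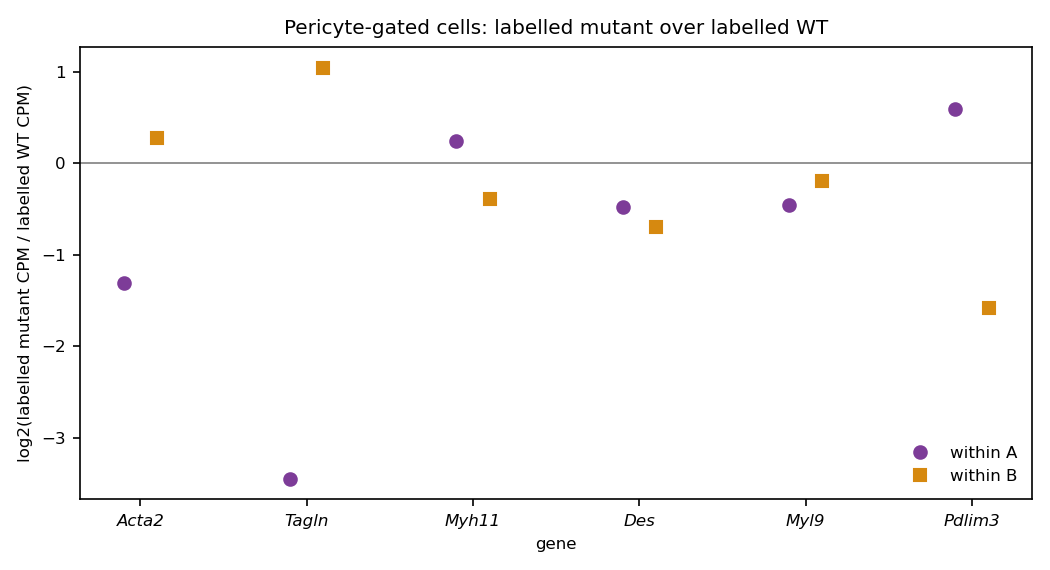
Log2 of the CPM in the library labelled mutant over that in the library labelled WT (vertical axis) in pericyte-gated cells, within A (circles) and within B (squares), for the 6 contractile genes with more than 3 counts in every library. Des and Myl9 lie below 0 in both, Acta2 and Tagln lie below 0 in A and above it in B, and Myh11 and Pdlim3 the other way round.

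Fibroblast-gated cells gave no call in 5644 genes (0% called; 19 higher and 6 lower with unadjusted p under 0.05 in edgeR, and DESeq2 called 0). The 7 contractile genes tested had log2 differences from -2.17 for Myh11 to -0.06 for Tagln, each with an adjusted p of 0.99993 (edgeR). Des stood at 85.3 and 68.1 CPM in mutant against 442 and 114 CPM in WT libraries, a log2 difference of -1.90 ± 0.73 with an unadjusted p of 0.0303 in edgeR's test. Pdlim3 stood at 0 and 35.5 CPM in mutant against 124 and 38.9 CPM in WT libraries. By CPM these 2 genes were lower without overlap, as were 13% of all genes tested, and 0 were higher without overlap, against 10.6%. Mutant A gave 8 cells here, and its counting error spans WT B for both genes: 0 counts of Pdlim3 allow up to 51.2 CPM, and 5 counts of Des have a 95% Poisson interval of 27.7 to 199 CPM. Without the Acta2/Tagln-led cluster Pdlim3 stood at 0 and 13.1 CPM in mutant against 9.51 and 38.9 CPM in WT libraries, so the labels overlapped. Des then stood at 85.3 and 80.6 CPM in mutant against 219 and 114 CPM in WT libraries, still without overlap. Myh11 then stood at 34.1 and 15.3 CPM in mutant libraries (2 and 7 counts) against 0 and 0 CPM in WT libraries.

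In mesenchymal-like cells as a whole, with 8272 genes tested and 0% called (12 higher and 3 lower with unadjusted p under 0.05 in edgeR, and DESeq2 called 0), Pdlim3 stood at 41.5 and 52.1 CPM in mutant against 105 and 125 CPM in WT libraries. Its log2 difference was -1.23 ± 0.43 (unadjusted p = 0.0242 in edgeR's test, adjusted p = 0.99993), and both pairs gave like ratios, 0.395 and 0.416. Without the Acta2/Tagln-led cluster the ratio within A turned to 3.79, from 15 counts in mutant A and 5 in WT A, and that within B was 0.323. Des, at 199 and 132 CPM in mutant against 403 and 217 CPM in WT libraries, and Myh11, at 374 and 389 CPM in mutant against 545 and 456 CPM in WT libraries, did not overlap either. Without that cluster Myh11 turned too within A, to 374 CPM in mutant A against 147 CPM in WT A, a ratio of 2.54, and the labels then overlapped. As reported, these 3 of 7 genes compare with 12% of all genes tested, and 0 were higher without overlap, against 8.06%.

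Whole libraries gave no call among 20040 genes (0% called; 20 higher and 5 lower with unadjusted p under 0.05 in edgeR, and DESeq2 called 0). Acta2 stood at 33.4 and 179 CPM in mutant against 148 and 68.8 CPM in WT libraries. The libraries held 63 and 454 mesenchymal-like cells in mutant against 118 and 162 in WT, and the part of these numbers in the levels was not tested. Only Pdlim3 of the 8 genes did not overlap, at 9.995 and 13.3 CPM in mutant against 16.5 and 14.7 CPM in WT libraries, as in 5.48% of all genes tested in that direction, and 0 were higher without overlap, against 4.23%. The difference between the gates did not differ detectably with the label for any of the 8 genes (7056 genes tested for the interaction, 0% called; 60 higher and 58 lower with unadjusted p under 0.05 in edgeR, and DESeq2 called 0). The interaction was 1.05 ± 0.74 for Acta2, 0.73 ± 0.56 for Myl9 and 1.71 ± 1.46 for Myh11 on the log2 scale (adjusted p = 1, edgeR).

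The share of pericyte-gated cells among gated cells was 86.9 and 42.5% in mutant against 46.7 and 51.3% in WT libraries. The exact 95% binomial interval of mutant A, 75.8 to 94.2%, lay apart from those of the other libraries. The means were 64.7 ± 31.4% in mutant and 49.0 ± 3.29% in WT libraries (SD, n = 2 each), a difference of 15.7 percentage points with p = 1 in a two-sided exact permutation test. With 2 libraries against 2 that test cannot go below 0.333.

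The 8 genes lie on 7 chromosomes of GRCm38 in GENCODE release M21. Acta2 (ENSMUSG00000035783) spans bases 34241090 to 34255590 of chromosome 19 on the minus strand with 9 exons in its longest transcript, Myh11 (ENSMUSG00000018830) bases 14194535 to 14291372 of chromosome 16 on the minus strand with 42, and Myl9 (ENSMUSG00000067818) bases 156775420 to 156781658 of chromosome 2 on the plus strand with 4. Tagln (ENSMUSG00000032085) spans bases 45929619 to 45936058 of chromosome 9 on the minus strand. Its last exon overlaps Pcsk7 and Gm48529, which lie on the plus strand. The last exon of Des (ENSMUSG00000026208; chromosome 1 from 75360329 to 75368579, plus strand) overlaps the antisense gene Gm15179. The labels do not say whether the counting used the strand or how reads shared among the actins were assigned, so counts of Tagln, Des and Acta2 may hold reads of those neighbours or relatives. Cnn1 (ENSMUSG00000001349; bases 22099216 to 22109630 of chromosome 9, plus strand), Tpm2 (ENSMUSG00000028464; bases 43514711 to 43523765 of chromosome 4, minus strand) and Pdlim3 (ENSMUSG00000031636; bases 45885461 to 45919548 of chromosome 8, plus strand) overlap no other gene.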

How the data were processed

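The authors deposited raw counts per gene and barcode for each of 4 libraries, with no normalization. Per the labels' protocols, cells were encapsulated with inDrop and RNA was amplified by the CEL-Seq route and sequenced on a NextSeq500. Per the submitters' processing notes the builds were GRCm38 and GRCh38. Aligner, counting program and collapsing of molecular barcodes: not given in the sources used here. Of 38459 features the 2 not marked as mouse, with 6 counts, were left out.

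Barcodes with at least 500 counts, 250 genes and at most 25% mitochondrial counts were kept, and Scrublet called 40 doublets (0.609%), which were removed. Clustering (scanpy 1.11.5, 2000 variable genes, 30 components, 15 neighbours, Leiden resolution 1, no correction between libraries) left out the 8 contractile genes and the list of 73, and gave 22 clusters, named from marker lists. Counts were summed per library and class, so that libraries were the replicates. Tests were edgeR 4.0.16 quasi-likelihood F tests (TMM, filterByExpr, Benjamini-Hochberg over all genes tested, adjusted p under 0.05), with the library as a block between gates. SE is the log2 difference divided by the square root of F. DESeq2 1.42.0 was an alternative, and fits were tested on simulated data. Intervals are exact 95% Poisson or binomial intervals, and like the limits at 0 counts (3 counts) cover counting error only. Between the labels the p-values measure the spread between 2 libraries per label. Between the gates they measure the spread of the gate difference over the 4 libraries. The labels do not say from how many animals each library came.

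The genes and lists were chosen with earlier results of these data known. The text names the 8 genes and the 4 gate genes, Sin3a, up to 8 genes per direction of the contractile list called between gates, and the 8 genes of highest correlation, passing over predicted genes. Alternatives were other gates, a gate after thinning each cell to 2000 counts, no filter on low counts, no block, a replicate block, leaving out each library and, chosen after seeing the data, leaving out the Acta2/Tagln-led cluster or using clusters in place of gates. Using clusters leaves the Acta2/Tagln-led cluster out too.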

Additional observations from a re-analysis of the deposited data

Results flagged for a closer look

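By the labels, Tagln and Acta2 of pericyte-gated cells moved opposite ways in A and in B, and within each pair the 95% Poisson intervals of the mutant and the WT library lay apart. The intervals cover counting error only, and 5 of the 53 cells of mutant A held 85.7% of its Tagln counts. How many of all genes did the same was not counted. Tagln in mutant over WT libraries was 0.0918 in A and 2.07 in B, and Acta2 was 0.405 in A and 1.21 in B. Each ratio compares 1 library with 1 library, and the difference between A and B was not tested. Sin3a goes against the labels within A. Taken as WT A over mutant A the ratios were 10.9 for Tagln and 2.47 for Acta2, the same way as within B. Opposite ratios agree whenever 1 of them is turned, so this does not check the labels. Des and Myl9 turned to 1.39 and 1.37 in A and then opposed B, at 0.620 and 0.873. Myh11 and Pdlim3 turned to 0.846 and 0.660, the same way as within B.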

How the results depend on the processing

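No difference between the gates changed sign, over 16 genes (6 contractile and 10 of the list) and 192 values under the alternatives. Of the 6 contractile genes tested, 3 were called as reported, 6 without the Acta2/Tagln-led cluster or with clusters in place of gates, 5 with gates set after thinning, 5 with no filter on low counts (which also called 1 lower, Cnn1), 4 with a gate of at least 4 counts, 2 with a gate of at least 1 count (Myh11 and Myl9), 1 with DESeq2 and 0 with no library block. Leaving out each library gave 1 to 6 called higher and 0 lower, with 6 without WT A. Using clusters in place of gates also leaves out the Acta2/Tagln-led cluster, with its 0, 116, 30 and 1 cells, and so is not a separate check. Of all genes tested, 7.16% were called higher as reported, 9.69% without that cluster, 6.65% without WT A and 3.89% with DESeq2. Over all genes, no library block left 401 calls (218 higher, 183 lower), and leaving out each library gave 398 to 937 (219 to 464 higher, 179 to 473 lower).

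Between the labels 0 genes were called as reported. No filter gave 7 in pericyte-gated, 7 in fibroblast-gated and 8 in mesenchymal-like cells and 1 interaction, and clusters in place of gates and the gate of at least 4 counts gave 1 interaction each. Leaving out each library gave 0 to 54 in pericyte-gated, 0 to 52 in fibroblast-gated and 0 to 210 in mesenchymal-like cells, 0 to 56 over whole libraries and 0 to 13 interactions, each highest without mutant B. Contractile genes called were 0 to 1, 0 to 2, 0 to 1, 0 to 1 and 0 to 1 in the same order. Without mutant B, where mutant A is alone and its spread is taken from the other groups, Tagln fell by 3.59 in pericyte-gated cells (edgeR, adjusted p = 0.000734), by 3.77 in mesenchymal-like cells and by 3.61 over whole libraries. The fibroblast-gated calls were then Acta2 (-3.61) and Tagln, with 0 counts in mutant A. Without WT B the interaction of Myh11 was called (4.30). The share of pericyte-gated cells differed by -6.46 to 37.9 percentage points, and was -6.46 without mutant A.

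Log2 differences that changed sign between the labels were these. In fibroblast-gated cells Tagln, -0.06 as reported, was 0.99 with clusters, 0.55 after thinning, 0.074 and 0.42 with gates of at least 1 and 4 counts, 0.11 with no filter and 1.19 without the Acta2/Tagln-led cluster. In pericyte-gated cells Tpm2, -0.0034 as reported, was 0.31 with clusters, 0.39 after thinning, 0.081 with a gate of at least 1 count and 0.12 without that cluster, and Myh11 was 0.0091 with clusters. Leaving out each library gave -1.25 to 0.40 for Acta2, -0.75 to 0.91 for Myh11, -1.86 to 1.14 for Pdlim3, -3.59 to 1.33 for Tagln and -1.60 to 1.87 for Tpm2 in pericyte-gated cells, and -3.61 to 0.54 for Acta2, -3.18 to 6.79 for Myh11 and -10.2 to 2.50 for Tagln in fibroblast-gated cells. The other values kept their direction (68 of 83 and 62 of 73 in all), and the cause of the changes was not tested.

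With a replicate block for the title's number 7 genes were called in pericyte-gated cells and none of them was contractile, and Tagln was -0.86, Myh11 0.027 and Tpm2 0.089 there and Cnn1 0.14 in fibroblast-gated cells. Deviations of same-numbered libraries from their group means correlated across genes at 0.544 in pericyte-gated, 0.585 in fibroblast-gated and 0.486 in mesenchymal-like cells. Over whole libraries the value was 0.228. Same-numbered libraries were thus alike in part, which the tests between labels without a block leave out. The values rest on 2 pairs, and what the number stands for is not given. Depth limits the fibroblast gate of mutant A most, with 8 cells.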
